A study of Homo sapiens with 14 samples.

Results

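The Wnt ligands, their receptors and their secreted modulators were followed through an RNA sequencing experiment on human neural crest induction. Members were matched by gene symbol and came to 51 of the 26485 genes in the count table. They are 19 Wnt ligands, 10 Frizzled receptors, 2 LRP co-receptors, 3 receptors of the ROR and RYK families, 4 R-spondins, 3 LGR receptors and 10 secreted inhibitors. The starting cells were of the human embryonic stem cell line H1 (WA01). Cultures were induced for 5 days and received CHIR99021 from hour 0 to hour 72, a compound that blocks the kinase GSK3 and so switches on beta-catenin signaling without any Wnt ligand. The high Wnt cultures received 10 µM and the low Wnt cultures 3 µM. At each dose there were further cultures with TGF-beta 1 (TGFB, 5 ng/µL in the unit of the labels) or with SB431542 (SB4, 10 µM), which blocks the type I receptors of TGF-beta, activin and nodal, from hour 0 to hour 120. The 7 groups were high Wnt with TGFB, high Wnt with SB4, high Wnt, low Wnt with TGFB, low Wnt with SB4, low Wnt and the undifferentiated stem cells (hESC), with 2 libraries each. All cultures derive from 1 cell line. Every induced group received CHIR99021 until hour 72 of the 5 days, so none went without a GSK3 inhibitor and none still received it at the end. CHIR99021 and the rest of the induction cannot be told apart in a comparison with hESC. Whether the libraries of a group represent independent cultures is not stated in the labels, so p-values refer to the spread between libraries, which may be purely technical.

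Wnt proteins are lipid-modified secreted ligands that bind a Frizzled receptor together with LRP5 or LRP6, which stops the destruction of beta-catenin. WNT5A and WNT11 are known mainly for signaling through Frizzled, ROR and RYK receptors that does not pass through beta-catenin. R-spondins bind LGR receptors and keep Frizzled receptors on the cell surface. SFRP proteins and WIF1 bind Wnt proteins in the extracellular space, the DKK proteins DKK1, DKK2 and DKK4 bind LRP5 and LRP6, and NOTUM removes the lipid from Wnt proteins. In vertebrate embryos WNT1 and WNT3A mark the dorsal neural tube, from which the neural crest leaves, and WNT3A, WNT5A and WNT8A are expressed at the posterior end of the body axis.

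Library totals ran from 10879287 to 19106827 counts. The summed level of 8 neural crest markers, in counts-per-million of the library total (CPM), was 109 to 143 CPM in the 6 high Wnt libraries with or without additive, 148 to 165 CPM in the 6 low Wnt ones and 139 to 148 CPM in hESC. Its members did not move together. SOX10 stood at 0.377 to 1.61 CPM in the high Wnt libraries, at 1.62 to 6.87 CPM in the low Wnt libraries and at 4.51 and 5.96 CPM in hESC. TFAP2A was below 0.3 CPM in every high Wnt library and in hESC, and was at 3.04 to 20.2 CPM in the low Wnt libraries. SNAI2 was at 21.9 to 73.5 CPM in the high Wnt libraries, at 16.6 to 30.4 CPM in the low Wnt libraries and at 0.847 and 0.773 CPM in hESC, and SOX9 was likewise higher in all 12 induced libraries than in hESC. NGFR was at 11.2 to 19.1 CPM in the high Wnt libraries, at 49.9 to 100.3 CPM in the low Wnt libraries and at 17.7 and 22.4 CPM in hESC. FOXD3 and ETS1 were highest in hESC, at 30.5 and 37.35 CPM and at 88.0 and 67.05 CPM. In the high Wnt libraries FOXD3 was at 0.0574 to 0.817 CPM and ETS1 at 5.36 to 65.2 CPM. In the low Wnt libraries they were at 0.179 to 10.0 CPM and 7.71 to 36.2 CPM. TFAP2B was at 2.45 to 4.92 CPM in the low Wnt libraries and at most 0.0706 CPM in the others. The summed level of 5 caudal or axial progenitor markers was 279 to 433 CPM in the high Wnt libraries against 2.56 to 6.54 CPM in the low Wnt libraries and 4.10 to 5.36 CPM in hESC. The induced groups are therefore named here by their treatment. In such bulk samples, fewer cells of a type and less RNA per cell cannot be told apart.

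Of the 51 members 46 had enough counts to be tested. The other 5 were WNT2, WNT6, WNT9B, WNT10A and DKK4, whose highest library held 3, 13, 2, 2 and 4 counts. WNT3 and WNT9B are also listed on an alternate contig of the build, so reads that match both copies were not counted, and the values of WNT3 are uncertain. FZD8 shares exon bases with the microRNA gene MIR4683 on the same strand. The level of each member in every library is drawn in the heat map.

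**Figure D1:**
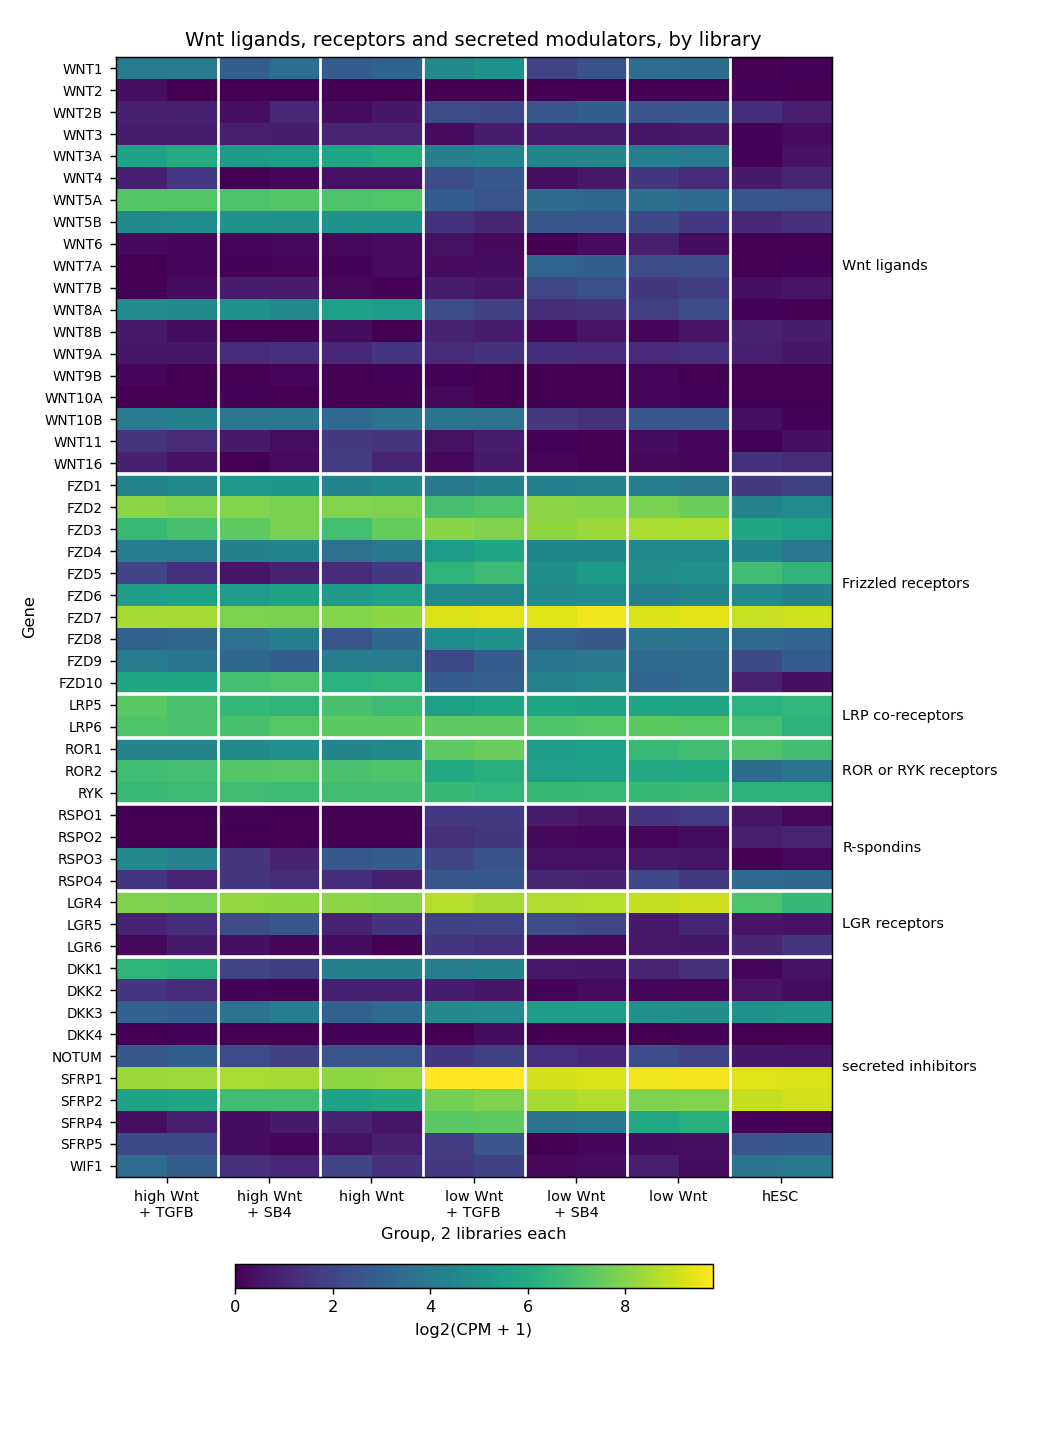
Level of all 51 members in each of the 14 libraries as log2(CPM + 1), by role (rows) and group (columns, 2 libraries each). WNT5A, WNT8A and FZD10 are bright in the 6 high Wnt libraries, SFRP4 is bright in the 6 low Wnt libraries, and RSPO1 and RSPO2 are dark in the high Wnt libraries.

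Levels of different genes were compared per length, as transcripts-per-million (TPM, means of 2 libraries). The 19 Wnt ligands together made up 215 ± 7.21 TPM in high Wnt with TGFB, 194 ± 8.24 in high Wnt with SB4 and 232 ± 10.0 in high Wnt (SD, n = 2 each). In low Wnt with TGFB the sum was 83.9 ± 6.95 TPM, in low Wnt with SB4 59.7 ± 0.276, in low Wnt 62.7 ± 0.119 and in hESC 8.69 ± 0.637. The ligand sum was thus separated by dose in all 12 induced libraries, and each induced library was above both hESC libraries. In high Wnt 4 ligands, WNT5A (58.3 TPM), WNT8A (55.9), WNT3A (53.6) and WNT5B (34.6), held most of the sum. In low Wnt the leading ligands were WNT3A (15.2 TPM) and WNT1 (11.9), and in low Wnt with TGFB WNT1 alone held 38.0% of the ligand sum.

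The Frizzled genes summed to 510 ± 41.9 TPM in high Wnt, 742 ± 46.6 TPM in low Wnt and 409 ± 7.77 TPM in hESC. FZD7 was the leading Frizzled gene in all groups except high Wnt with SB4, where FZD2 (163 TPM) and FZD7 (154 TPM) had similar means. FZD7 held 35.7% of the Frizzled sum in high Wnt, 60.2% in low Wnt and 78.2% in hESC, and FZD10 held 12.5% in high Wnt. LGR4 held over 97% of the LGR sum in every group. The R-spondin sum was the smallest of the groups of modulators, at 13.9 ± 2.74 TPM in high Wnt with TGFB, 4.53 ± 0.0955 TPM in high Wnt, 10.7 ± 1.02 TPM in low Wnt with TGFB, 5.06 ± 0.459 TPM in low Wnt and 8.84 ± 1.13 TPM in hESC. Its make-up differed by group: RSPO3 held 89.4% in high Wnt with TGFB and 75.5% in high Wnt, and RSPO4 held 54.2% in low Wnt and 90.0% in hESC. The 10 secreted inhibitors summed to 287 ± 17.6 TPM in high Wnt, 894 ± 60.5 TPM in low Wnt and 979 ± 7.88 TPM in hESC, mainly through SFRP1 and SFRP2.

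**Figure D2:**
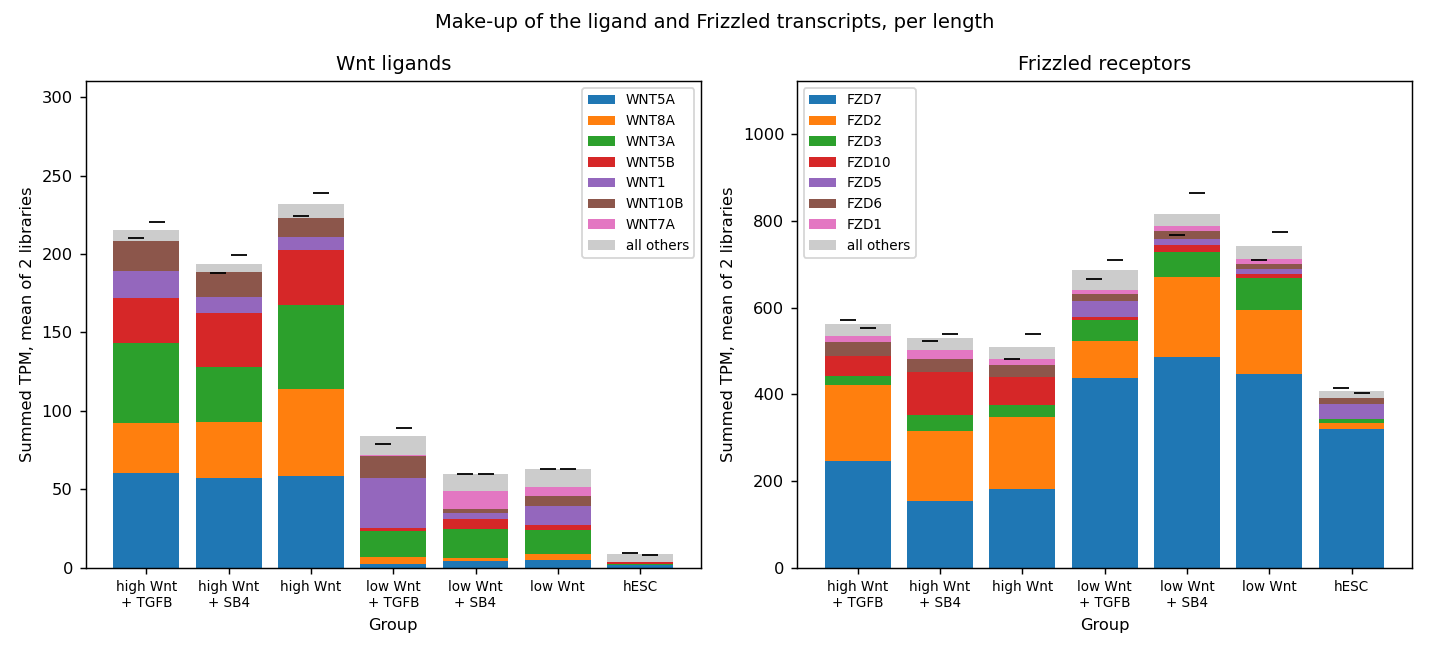
Summed TPM of the Wnt ligands (left) and Frizzled receptors (right) in each group, split by gene; bars are means of 2 libraries and short dashes the sum in each library. The ligand sum is 232 TPM in high Wnt, 62.7 TPM in low Wnt and 8.69 TPM in hESC, and the Frizzled sum is largest in the low Wnt groups.

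High Wnt was set against low Wnt to ask how the members differ with the dose of the GSK3 inhibitor. Of the 46 tested members 17 rose and 18 fell in high Wnt, so 76.1% were called at an adjusted p under 0.05, where 38.5% of all 16149 genes tested were called (19.4% higher and 19.1% lower). The median size of the log2 fold change was 1.60 over the tested members and 0.37 over all genes. By role, 7 ligands rose and 4 fell, 4 Frizzled genes rose and 5 fell, 1 R-spondin rose and 3 fell, and 3 inhibitors rose and 4 fell. Here and below, p-values are those of the quasi-likelihood test of edgeR, adjusted over all genes by the Benjamini-Hochberg method, fold changes are on the log2 scale with their standard error, and per-library levels are in CPM of the library total.

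The non-canonical ligand WNT5A stood at 133 and 141 CPM in high Wnt, against 11.3 and 9.78 CPM in low Wnt (3.72 ± 0.13, adjusted p = 9.82e-13). Its close relative WNT5B was at 31.5 and 29.0 CPM in high Wnt, against 3.48 and 2.21 CPM in low Wnt (3.42 ± 0.21, adjusted p = 7.66e-10). WNT8A, a posterior ligand, was at 48.2 and 40.0 CPM in high Wnt, against 2.58 and 3.94 CPM in low Wnt (3.77 ± 0.22, adjusted p = 5.14e-10). For each of these ligands both high Wnt libraries were many fold above both low Wnt libraries. WNT11, a ligand of low level, rose too, with 2.18 and 1.78 CPM in high Wnt, against 0.240 and 0.119 CPM in low Wnt (3.41 ± 0.63, adjusted p = 0.000346). WNT3A (1.85 ± 0.16) and WNT10B (1.04 ± 0.20) also rose in high Wnt.

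The ligands WNT7A, WNT7B and WNT2B went the other way. WNT7A was at 0.0807 and 0.205 CPM in high Wnt, against 3.66 and 3.94 CPM in low Wnt (-4.60 ± 0.52, adjusted p = 1.82e-06). WNT7B had 3 counts over both high Wnt libraries and 75 over both low Wnt libraries, which is 20.2-fold lower in high Wnt with an exact 95% interval of 6.66 to 100 for counting error only. WNT2B was at 0.242 and 0.547 CPM in high Wnt, against 4.68 and 5.07 CPM in low Wnt (-3.55 ± 0.48, adjusted p = 1.54e-05). These ligands were near the detection limit in high Wnt, where their fitted change moved by over 1.5 times with 1 library: to -5.40 for WNT7A and -4.26 for WNT2B without high Wnt replicate 2, and to -4.89 for WNT7B without high Wnt replicate 1, all still called.

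Among the receptors FZD10 was at 74.9 and 82.8 CPM in high Wnt, against 8.17 and 10.1 CPM in low Wnt (3.12 ± 0.15, adjusted p = 4.81e-11). FZD5 was at 1.37 and 2.05 CPM in high Wnt, against 27.3 and 30.4 CPM in low Wnt (-4.04 ± 0.28, adjusted p = 4.55e-09). The non-canonical receptor pair also split by dose. ROR1 was at 21.4 and 24.1 CPM in high Wnt, against 95.9 and 108 CPM in low Wnt (-2.15 ± 0.13, adjusted p = 7.12e-10), while ROR2 was at 127 and 136 CPM in high Wnt, against 59.7 and 62.8 CPM in low Wnt (1.11 ± 0.11, adjusted p = 2.59e-07). The high Wnt and low Wnt libraries did not overlap for any of these 4 receptors. Here and below, the share of all genes without overlap was not counted, so a lack of overlap only describes the libraries. FZD3 (-1.37 ± 0.17), FZD7 (-1.26 ± 0.10) and LGR4 (-0.93 ± 0.12) fell as well.

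The secreted modulators divided between gain and loss. DKK1 was at 18.5 and 18.4 CPM in high Wnt, against 1.02 and 1.55 CPM in low Wnt (3.85 ± 0.21, adjusted p = 2.39e-10), and RSPO3 was at 5.41 and 6.42 CPM in high Wnt, against 0.600 and 0.477 CPM in low Wnt (3.45 ± 0.38, adjusted p = 1.44e-06). SFRP4, a secreted Frizzled-related inhibitor, was at 0.968 and 0.478 CPM in high Wnt, against 58.8 and 72.2 CPM in low Wnt (-6.51 ± 0.26, adjusted p = 5.53e-12). SFRP4 was therefore the member with the largest gap between the doses among those with counts in both groups. RSPO1 had 0 counts in both high Wnt libraries and 70 in the low Wnt libraries, which is at least 18.9-fold lower in high Wnt when 3 counts over the group are taken as the limit for 0. The most abundant inhibitors SFRP1 (-1.44 ± 0.09) and SFRP2 (-2.15 ± 0.11) fell too.

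Cell type markers differed between the doses as well. The sum of 4 neural progenitor markers was 6.69 to 8.27 CPM in high Wnt and 240 to 243 CPM in low Wnt, with SOX1 at 0.645 and 1.64 CPM in high Wnt, against 174 and 176 CPM in low Wnt. The sum of 4 mesoderm markers was 140 to 156 CPM in high Wnt, with all 4 at a mean of at least 1 CPM, and 5.79 to 7.69 CPM in low Wnt, with 2 of 4. That of 5 stem cell markers was 702 to 811 CPM in high Wnt, 1310 to 1519 CPM in low Wnt and 3834 to 3996 CPM in hESC. In high Wnt only 2 of 5 averaged at least 1 CPM, LIN28A (mean 624 CPM) and DPPA4 (132 CPM), and NANOG had 0 counts. POU5F1 was at 0.161 and 0.0683 CPM in high Wnt, at 1.92 and 4.35 CPM in low Wnt and at 156 and 211 CPM in hESC. The part of cells of these types in the members' differences, WNT7A and WNT7B included, was not tested.

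Set against hESC, high Wnt had 25 tested members higher and 15 lower (87.0% called, against 72.4% of all genes, 36.3% higher and 36.1% lower), and low Wnt had 26 higher and 10 lower (78.3% called, against 71.4% of all genes, 35.8% higher and 35.6% lower). Most of the tested genes were called in each of these comparisons, which share the hESC libraries, so these shares stand little above the background. The median log2 fold change was 1.01 over the members in high Wnt and 0.89 in low Wnt, against 0.0093 and 0.0040 over all genes. Among the 15 tested ligands 9 were higher and 2 lower in high Wnt, and 11 were higher and 1 lower in low Wnt.

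Several ligands had almost no counts in hESC and clear counts in the induced groups. WNT3A was at 53.8 and 66.1 CPM in high Wnt, at 17.6 and 15.99 CPM in low Wnt and at 0.0706 and 0.387 CPM in hESC. WNT1 was at 6.13 and 7.93 CPM in high Wnt, at 10.3 and 9.90 CPM in low Wnt and at 0 and 0.0773 CPM in hESC, where 1 read was counted over both libraries. The ratio for WNT1 was 192 in high Wnt (interval 34.2 to 7644) and 273 in low Wnt (interval 48.7 to 10830). With 1 count in hESC as well, WNT8A had a ratio of 1186 in high Wnt (interval 212 to 46890) and 88.4 in low Wnt (interval 15.5 to 3523), WNT7A one of 103 in low Wnt (interval 18.2 to 4100) and SFRP4 one of 1776 in low Wnt (interval 318 to 70190). These intervals are very wide because they rest on that single count. WNT10B rose by 5.75 ± 0.35 in high Wnt (adjusted p = 2.56e-10) and by 4.71 ± 0.37 in low Wnt (adjusted p = 8.80e-09).

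FZD10 (6.97 ± 0.23, adjusted p = 1.81e-13) and DKK1 (6.04 ± 0.29, adjusted p = 1.71e-11) rose most steeply in high Wnt among the receptors and inhibitors. FZD10 was at 0.847 and 0.309 CPM and DKK1 at 0.141 and 0.387 CPM in hESC. RSPO3, with 2 counts in hESC and 161 in high Wnt, had a ratio of 80.7 (interval 22.0 to 672). The Wnt-binding inhibitor WIF1 was at 3.15 and 1.64 CPM in high Wnt, at 0.781 and 0.239 CPM in low Wnt and at 12.5 and 14.3 CPM in hESC (-2.57 ± 0.35 in high Wnt, adjusted p = 5.65e-06, and -4.79 ± 0.43 in low Wnt, adjusted p = 3.69e-08). SFRP5 was at 0.403 and 0.752 CPM in high Wnt, at 0.240 and 0.298 CPM in low Wnt and at 4.87 and 5.49 CPM in hESC. Both inhibitors were thus lower in every induced library of these groups than in either hESC library.

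FZD5 fell in both groups, by 5.86 ± 0.27 on the log2 scale in high Wnt (adjusted p = 1.03e-11) and by 1.82 ± 0.19 in low Wnt (adjusted p = 2.72e-07), with 109 and 83.1 CPM in hESC. RSPO4, the main R-spondin of hESC at 9.81 and 8.43 CPM, was at 1.45 and 0.820 CPM in high Wnt, against 3.36 and 2.21 CPM in low Wnt. SFRP2 was at 50.3 and 56.5 CPM in high Wnt and at 481 and 535 CPM in hESC (-3.33 ± 0.11, adjusted p = 2.05e-13). The ligand WNT16 was at 0.180 and 0.119 CPM in low Wnt and at 1.69 and 1.24 CPM in hESC (-3.31 ± 0.82, adjusted p = 0.00171). LGR6, with 3 counts in high Wnt and 38 in hESC, was 12.6-fold lower in high Wnt (interval 4.01 to 64.0).

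Single libraries moved several of these values. Without hESC replicate 1 or hESC replicate 2 the fitted change in high Wnt was 7.16 or 9.56 for WNT3A, 6.29 or 9.80 for WNT1, 12.44 or 9.12 for WNT8A and 5.10 or 9.55 for RSPO3, and in low Wnt it was 5.30 or 7.70 for WNT3A, 6.79 or 10.30 for WNT1, 5.38 or 8.89 for WNT7A, 8.66 or 5.34 for WNT8A and 12.99 or 9.66 for SFRP4. Without hESC replicate 1, FZD10 in high Wnt was at 7.87 and WNT10B in low Wnt at 5.87, and without hESC replicate 2, DKK1 in high Wnt was at 6.93. WIF1 in low Wnt was at -5.86 without low Wnt replicate 1 and at -4.17 without low Wnt replicate 2, and LGR6 in high Wnt at -7.55 without high Wnt replicate 1 and at -2.56 without high Wnt replicate 2. All of these stayed called. LGR6 in low Wnt (-1.39 ± 0.57, adjusted p = 0.0381) lost its call without low Wnt replicate 1 (adjusted p = 0.0973), low Wnt replicate 2 (0.135), low Wnt with SB4 replicate 2 (0.0508) or hESC replicate 2 (0.283), and also with library totals alone (0.0509) or DESeq2 (0.104).

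TGFB was added to ask what active TGF-beta signaling does at each dose. In low Wnt, 16 tested members rose and 9 fell (54.3% called, against 26.0% of all genes, 13.7% higher and 12.2% lower), with a median size of the log2 fold change of 0.84 against 0.28 over all genes. All 5 inhibitors that were called rose, as did 2 of 4 R-spondins and 2 of 3 LGR genes, while 3 ligands rose and 4 fell and 3 Frizzled genes rose and 4 fell. In high Wnt, 6 members rose and 3 fell (19.6% called, against 7.25% of all genes, 3.75% higher and 3.49% lower), with a median size of 0.35 against 0.19.

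DKK1 had the largest rise in low Wnt among the named members, with 16.9 and 18.7 CPM in low Wnt with TGFB and 1.02 and 1.55 CPM in low Wnt (3.70 ± 0.21, adjusted p = 4.34e-09). In high Wnt it was at 81.3 and 72.6 CPM with TGFB and at 18.5 and 18.4 CPM without (2.0 ± 0.15, adjusted p = 6.88e-07). No libraries overlapped at either dose, and low Wnt with TGFB reached the DKK1 level of high Wnt without additive. RSPO3 was at 3.12 and 4.51 CPM in low Wnt with TGFB and 0.600 and 0.477 CPM in low Wnt (2.73 ± 0.39, adjusted p = 6.30e-05). In high Wnt it was at 23.6 and 19.1 CPM with TGFB and 5.41 and 6.42 CPM without (1.78 ± 0.28, adjusted p = 0.000583). An activator and an inhibitor of the pathway thus rose side by side, and both kept their call at both doses when any 1 library was left out.

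SFRP5 was at 2.23 and 5.01 CPM in low Wnt with TGFB and 0.240 and 0.298 CPM in low Wnt (3.64 ± 0.52, adjusted p = 6.35e-05). In high Wnt it was at 3.58 and 3.33 CPM with TGFB and 0.403 and 0.752 CPM without (2.48 ± 0.48, adjusted p = 0.00398). WIF1 was at 2.08 and 2.72 CPM in low Wnt with TGFB and 0.781 and 0.239 CPM in low Wnt (2.14 ± 0.48, adjusted p = 0.00301), and at 10.3 and 6.41 CPM in high Wnt with TGFB and 3.15 and 1.64 CPM in high Wnt (1.74 ± 0.36, adjusted p = 0.00587). Both inhibitors were higher in every TGFB library, yet they rested on few counts. In low Wnt the SFRP5 change was 2.96 without low Wnt with TGFB replicate 2, and the WIF1 change was 3.22 without low Wnt replicate 1 and 1.52 without low Wnt replicate 2, each still called. In high Wnt the SFRP5 call was lost without high Wnt replicate 1 (adjusted p = 0.0552), and the WIF1 call without high Wnt replicate 2 (0.0885) or high Wnt with TGFB replicate 1 (0.0843).

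Of the 15 tested ligands, WNT1 alone was called higher with TGFB at both doses. It was at 23.3 and 31.8 CPM in low Wnt with TGFB and 10.3 and 9.90 CPM in low Wnt (1.37 ± 0.23, adjusted p = 0.000265), and at 14.9 and 15.2 CPM in high Wnt with TGFB and 6.13 and 7.93 CPM in high Wnt (1.03 ± 0.24, adjusted p = 0.0145). The high Wnt call was lost without high Wnt replicate 1 (adjusted p = 0.134), high Wnt with TGFB replicate 1 (0.0658) or high Wnt with TGFB replicate 2 (0.0813), although the libraries did not overlap. In all, DKK1, RSPO3, SFRP5, WIF1 and WNT1 rose at both doses, which is 5 of the 16 members that rose in low Wnt and 5 of the 6 that rose in high Wnt. Over all genes 13.7% rose in low Wnt and 3.75% in high Wnt. The share of all genes that rose at both doses was not counted, so this overlap has no background to be set against. FZD7 was the sixth in high Wnt (0.38 ± 0.10, adjusted p = 0.0334), a call lost without any 1 of the 4 libraries compared (adjusted p = 0.221 and 0.0773 without high Wnt replicates 1 and 2, and 0.137 and 0.154 without high Wnt with TGFB replicates 1 and 2).

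The start regions of 3 of these 5 genes are printed because these members rose together at both doses. Each runs from 250 bases before to 50 bases after the RefSeq start (GRCh38.p14), for DKK1 at chr10:52314031-52314330 on the plus strand, for WNT1 at chr12:48978072-48978371 on the plus strand and for RSPO3 at chr6:127118421-127118720 on the plus strand. The count table begins DKK1 at 52314281, inside its window, but WNT1 at 48978453 and RSPO3 at 127118903, downstream of theirs, so for WNT1 and RSPO3 the annotations place the start differently and the windows hold no base of the counted gene. Capitals mark CAGAC or its complement GTCTG, the half-site that SMAD proteins bind, searched on both strands.
DKK1: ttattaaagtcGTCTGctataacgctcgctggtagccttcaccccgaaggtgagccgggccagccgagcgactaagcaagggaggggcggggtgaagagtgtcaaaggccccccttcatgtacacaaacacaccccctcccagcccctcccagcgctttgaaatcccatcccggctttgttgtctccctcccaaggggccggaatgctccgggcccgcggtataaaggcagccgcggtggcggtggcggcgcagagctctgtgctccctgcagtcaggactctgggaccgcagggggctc
WNT1: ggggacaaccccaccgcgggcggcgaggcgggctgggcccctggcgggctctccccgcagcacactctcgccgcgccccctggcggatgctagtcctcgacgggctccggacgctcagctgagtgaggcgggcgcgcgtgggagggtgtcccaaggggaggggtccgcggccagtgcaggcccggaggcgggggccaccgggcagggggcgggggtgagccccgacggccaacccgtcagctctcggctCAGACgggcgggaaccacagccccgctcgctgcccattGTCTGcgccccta
RSPO3: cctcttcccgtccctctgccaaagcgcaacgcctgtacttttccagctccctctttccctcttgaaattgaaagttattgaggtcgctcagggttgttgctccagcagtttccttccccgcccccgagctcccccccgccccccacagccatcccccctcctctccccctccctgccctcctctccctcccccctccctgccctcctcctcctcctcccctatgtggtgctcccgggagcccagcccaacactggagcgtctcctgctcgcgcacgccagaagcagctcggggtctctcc
DKK1 held 1 such half-site, WNT1 held 2 and RSPO3 held none, and the windows of SFRP5 and WIF1 also held none. The count table begins WIF1, on the minus strand, at 65121566. Its window, 65121256 to 65121555, thus lies wholly downstream of that start. The half-site, chosen after the values were seen, lay in 45.3% of 35116 promoter windows and in 50% of the 40 windows found for 35 members. The longer SMAD palindrome GTCTAGAC and the TCF/LEF motif CTTTGAT were in none of the 40 member windows, and in 0.202% and 2.62% of all windows. A match is a description of the letters in the window and not a site in use.

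WNT7A was nearly lost with TGFB in low Wnt, at 0.223 and 0.247 CPM in low Wnt with TGFB and 3.66 and 3.94 CPM in low Wnt (-4.04 ± 0.46, adjusted p = 6.05e-06). WNT7B was at 0.669 and 0.495 CPM in low Wnt with TGFB and 1.98 and 2.50 CPM in low Wnt (-2.03 ± 0.46, adjusted p = 0.00343), a call lost without low Wnt with TGFB replicate 2 (adjusted p = 0.0565). Both members of this ligand pair were separated between the groups without overlap. WNT5A was at 6.62 and 4.89 CPM in low Wnt with TGFB and 11.3 and 9.78 CPM in low Wnt (-0.97 ± 0.15, adjusted p = 0.000181). WNT5B fell too (-1.15 ± 0.28, adjusted p = 0.00626), a call lost without low Wnt replicate 1 (adjusted p = 0.113) or low Wnt with TGFB replicate 2 (0.132), or with only the groups compared in the fit (0.0619).

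Among the receptors in low Wnt with TGFB, FZD2 was at 118 and 131 CPM, against 221 and 194 CPM in low Wnt (-0.82 ± 0.13, adjusted p = 0.000170), and FZD5 was at 82.3 and 104 CPM, against 27.3 and 30.4 CPM in low Wnt (1.61 ± 0.19, adjusted p = 8.07e-06). FZD5 in low Wnt with TGFB was thus close to its hESC level of 109 and 83.1 CPM. FZD9 fell (-1.09 ± 0.27, adjusted p = 0.00599), a call lost without low Wnt with TGFB replicate 1 (adjusted p = 0.0804). LGR5 was at 2.83 and 2.97 CPM in low Wnt with TGFB and 0.600 and 1.01 CPM in low Wnt (1.75 ± 0.37, adjusted p = 0.00218). RSPO2 was at 1.64 and 2.04 CPM in low Wnt with TGFB and 0.120 and 0.239 CPM in low Wnt (3.22 ± 0.58, adjusted p = 0.000960). SFRP4 rose to 153 and 163 CPM in low Wnt with TGFB, against 58.8 and 72.2 CPM in low Wnt (1.19 ± 0.15, adjusted p = 2.21e-05).

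Markers of other cell types moved with TGFB in the same libraries. The summed level of 4 endoderm markers was 43.5 and 96.4 CPM in the low Wnt with TGFB libraries, with all 4 at a mean of at least 1 CPM, against 1.74 to 2.09 CPM in low Wnt, with none of 4. SOX17 was at 15.3 and 34.3 CPM in low Wnt with TGFB and at 0.180 and 0.537 CPM in low Wnt, so this list also differed between the replicates. The sum of 5 stem cell markers was 2340 to 2659 CPM in low Wnt with TGFB and 1310 to 1519 CPM in low Wnt, and that of 4 neural progenitor markers was 58.6 to 61.5 CPM in low Wnt with TGFB and 240 to 243 CPM in low Wnt. In high Wnt the sum of 4 mesoderm markers was 369 to 415 CPM with TGFB and 140 to 156 CPM without, and that of 5 stem cell markers was 494 to 498 CPM with TGFB and 702 to 811 CPM without. The fall in the stem cell sum lay in LIN28A, at 351 and 346 CPM with TGFB and 687.5 and 561 CPM without. DPPA4 was at 146.3 and 147.5 CPM with TGFB and 123 and 141 CPM without. The endoderm list stood at 3.65 to 5.06 CPM in high Wnt with TGFB and 0.403 to 0.888 CPM in high Wnt, with GATA4 at 3.77 and 2.70 CPM with TGFB, against 0.242 and 0.273 CPM without, and SOX17 at 0 counts with TGFB. In low Wnt the mesoderm list stood at 37.9 to 46.5 CPM with TGFB and 5.79 to 7.69 CPM without. Most of that rise was KDR, at 41.3 and 33.4 CPM with TGFB and 3.60 and 3.16 CPM without. The means of MEOX1, FOXC1 and TCF15 were 0.576, 1.06 and 3.23 CPM with TGFB, against 0.539, 0.628 and 2.19 CPM without. KDR was also at 179 and 151 CPM in hESC, where the mesoderm list summed to 156 to 183 CPM. The part of cells of these types in the members' changes was not tested.

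Fewer calls fell in high Wnt with TGFB. WNT8A was at 25.1 and 24.8 CPM in high Wnt with TGFB and 48.2 and 40.0 CPM in high Wnt (-0.89 ± 0.18, adjusted p = 0.00615), a call lost without high Wnt replicate 1 (adjusted p = 0.102), high Wnt with TGFB replicate 1 (0.0598) or replicate 2 (0.0648). FZD10 was at 54.5 and 58.1 CPM in high Wnt with TGFB and 74.9 and 82.8 CPM in high Wnt (-0.55 ± 0.13, adjusted p = 0.0167). The FZD10 call was lost without high Wnt replicate 1 (adjusted p = 0.0594) or 2 (0.126), or high Wnt with TGFB replicate 1 (0.154) or 2 (0.0823). WNT9A (-1.47 ± 0.42, adjusted p = 0.0415) lost its call when any 1 of 12 libraries was left out, with an adjusted p of up to 0.268 without high Wnt replicate 2. The WNT9A call was also lost with library totals alone (adjusted p = 0.052), DESeq2 (0.154), no filter on low counts (0.0542) and only the groups compared (0.0681). DKK1 and RSPO3 were thus the members called in high Wnt with TGFB whatever library was left out.

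**Figure D3:**
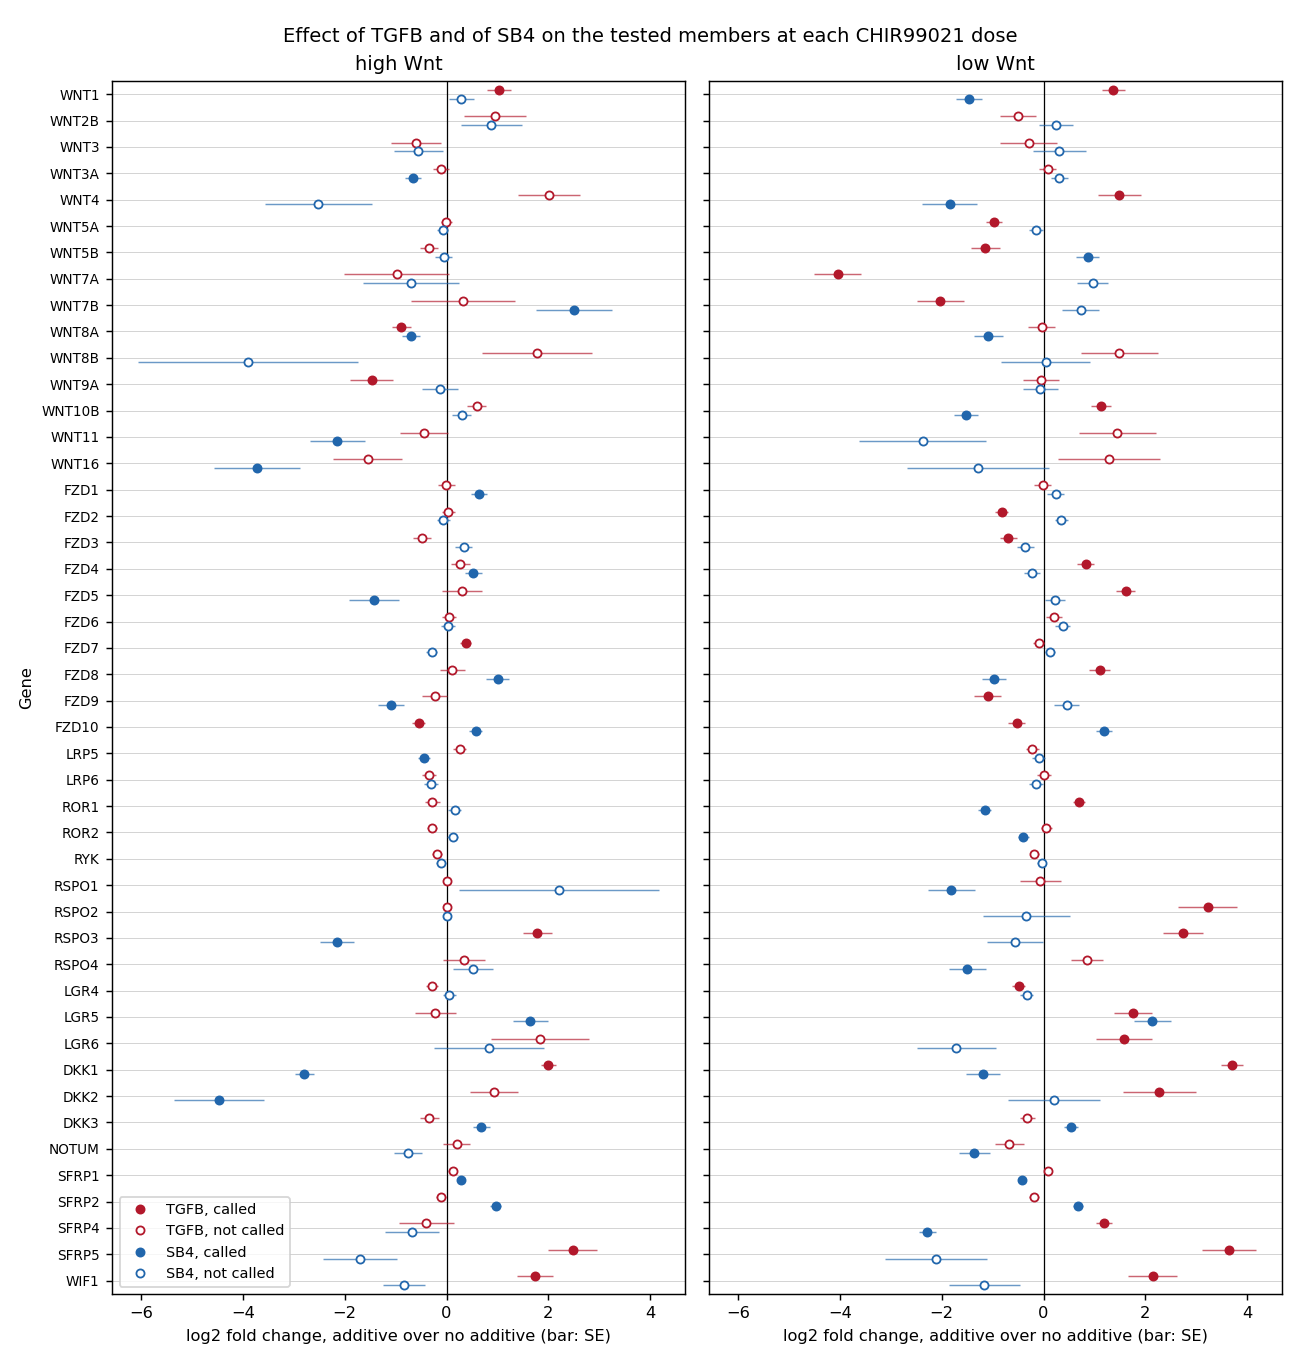
Log2 fold change of each of the 46 tested members with TGFB (red) or SB4 (blue) over no additive, in high Wnt (left) and low Wnt (right). Filled points have an adjusted p under 0.05, open points do not, and bars are standard errors; in low Wnt DKK1 stands at 3.70 with TGFB and WNT7A at -4.04. The TGFB and SB4 values of a panel share the same untreated libraries.

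SB4 was added to ask what depends on the TGF-beta, activin and nodal receptors in these cultures. In low Wnt with SB4, 5 tested members rose and 13 fell (39.1% called, against 11.2% of all genes, 4.84% higher and 6.39% lower). The median log2 fold change was -0.19 over the members and 0 over all genes. In high Wnt with SB4, 9 rose and 10 fell (41.3% called, against 21.5% of all genes, 9.94% higher and 11.6% lower), with medians of -0.070 and 0.0030. With SB4 at either dose, leaving out 1 of the libraries compared lowered the number of calls over all genes, not only among the members. The count in low Wnt depended on single libraries, with 8 to 11 members called when 1 of the 4 libraries compared was left out, and 7 of the 18 calls held whichever library was left out. In high Wnt the count was 7 without high Wnt replicate 1 and 8 without high Wnt with SB4 replicate 2, and 5 of the 19 calls held whichever library was left out.

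The calls in low Wnt with SB4 that held were SFRP4, WNT1, WNT10B, ROR1, SFRP2, FZD10 and LGR5. SFRP4 was at 12.6 and 14.4 CPM in low Wnt with SB4, against 58.8 and 72.2 CPM in low Wnt (-2.28 ± 0.17, adjusted p = 2.16e-07). WNT1 was at 2.92 and 4.34 CPM in low Wnt with SB4 and 10.3 and 9.90 CPM in low Wnt (-1.47 ± 0.25, adjusted p = 0.00107). WNT10B was at 2.06 and 1.68 CPM in low Wnt with SB4 and 5.34 and 5.31 CPM in low Wnt (-1.52 ± 0.23, adjusted p = 0.000327). The groups did not overlap for any of these 3 genes. ROR1 was at 43.9 and 48.1 CPM in low Wnt with SB4 and 95.9 and 108 CPM in low Wnt (-1.16 ± 0.12, adjusted p = 8.12e-06).

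FZD10, LGR5 and SFRP2 rose with SB4 at both doses. FZD10 was at 19.2 and 22.5 CPM in low Wnt with SB4 and 8.17 and 10.1 CPM in low Wnt (1.19 ± 0.15, adjusted p = 7.19e-05), and at 115 and 130 CPM in high Wnt with SB4 and 74.9 and 82.8 CPM in high Wnt (0.57 ± 0.13, adjusted p = 0.00465). LGR5, a receptor for R-spondins, was at 4.01 and 3.19 CPM in low Wnt with SB4 and 0.600 and 1.01 CPM in low Wnt (2.13 ± 0.36, adjusted p = 0.000915), and at 3.74 and 5.11 CPM in high Wnt with SB4 and 0.968 and 1.71 CPM in high Wnt (1.65 ± 0.34, adjusted p = 0.00271). Against the same low Wnt libraries LGR5 was thus higher with SB4 and, as given above, with TGFB. SFRP2 was at 360 and 405 CPM in low Wnt with SB4 and 236 and 242 CPM in low Wnt (0.67 ± 0.10, adjusted p = 0.000267), and at 109 and 108 CPM in high Wnt with SB4 and 50.3 and 56.5 CPM in high Wnt (0.96 ± 0.11, adjusted p = 8.48e-06). The FZD10 call in high Wnt was lost without high Wnt replicate 1 (adjusted p = 0.0559) or high Wnt with SB4 replicate 2 (0.0647).

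DKK1 fell strongly in high Wnt with SB4, to 3.03 and 2.52 CPM, against 18.5 and 18.4 CPM in high Wnt (-2.79 ± 0.19, adjusted p = 3.82e-08). Its relative DKK2 had 1 count in high Wnt with SB4 and 22 in high Wnt, which is 26.8-fold lower with SB4 (interval 4.33 to 1106). RSPO3 was at 1.81 and 0.976 CPM in high Wnt with SB4 and 5.41 and 6.42 CPM in high Wnt (-2.15 ± 0.33, adjusted p = 0.000208). Both DKK1 and RSPO3 were lower in each SB4 library than in either high Wnt library, and together with DKK2, LGR5 and SFRP2 they made up the 5 calls that held.

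The other members named in these comparisons had calls that rested on single libraries. In low Wnt with SB4, WNT4 (-1.84 ± 0.54) lost its call without low Wnt replicate 1 (adjusted p = 0.236) or 2 (0.0524) or low Wnt with SB4 replicate 1 (0.222) or 2 (0.0995), RSPO1 (-1.81 ± 0.46) without the same libraries (0.0620, 0.117, 0.0602 and 0.194) and DKK3 (0.54 ± 0.14) likewise (0.0671, 0.174, 0.0995 and 0.117). RSPO4 (-1.50 ± 0.36) lost its call without low Wnt replicate 1 (0.141) or low Wnt with SB4 replicate 1 (0.0511) or 2 (0.130), and WNT5B (0.87 ± 0.22) without low Wnt replicate 2 (0.224) or low Wnt with SB4 replicate 1 (0.0967) or 2 (0.0682). DESeq2 also ended the calls of WNT4 (adjusted p = 0.0512) and RSPO1 (0.112), and a fit of only the groups compared that of WNT5B (0.0539). In high Wnt with SB4, WNT11 (-2.14 ± 0.54), DKK3 (0.68 ± 0.17) and FZD8 (1.00 ± 0.23) lost their calls without high Wnt replicate 1 (adjusted p = 0.0659, 0.117 and 0.0789) or high Wnt with SB4 replicate 2 (0.114, 0.126 and 0.0799). WNT16 (-3.72 ± 0.84) lost its call without high Wnt replicate 1 (0.0625) and was at -2.85 and -7.63 without high Wnt with SB4 replicates 1 and 2, WNT11 was at -2.82 without high Wnt with SB4 replicate 1, and FZD9 (-1.09 ± 0.25) lost its call without high Wnt with SB4 replicate 2 (0.0723). FZD1 (0.64 ± 0.16) lost its call without high Wnt replicate 1 (0.0959) or high Wnt with SB4 replicate 1 (0.0641), and FZD5 (-1.42 ± 0.49) without high Wnt replicate 1 (0.0657) or 2 (0.274) or high Wnt with SB4 replicate 1 (0.227) or 2 (0.0661). The FZD5 call was also lost with library totals alone (adjusted p = 0.0659) or only the groups compared (0.0527).

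Markers of other cell types moved with SB4. The summed level of 4 neural progenitor markers was 402 to 456 CPM in low Wnt with SB4 and 240 to 243 CPM in low Wnt, and 75.4 to 95.2 CPM in high Wnt with SB4 and 6.69 to 8.27 CPM in high Wnt. PAX6 was at 150 and 121 CPM in low Wnt with SB4 and 53.3 and 49.9 CPM in low Wnt, and at 71.1 and 90.2 CPM in high Wnt with SB4 and 5.81 and 6.63 CPM in high Wnt. The mesoderm list stood at 84.9 to 102 CPM in high Wnt with SB4 and 140 to 156 CPM in high Wnt. The caudal or axial progenitor list stood at 361.5 to 425 CPM in high Wnt with SB4 and 411 to 433 CPM in high Wnt. Its member TBX6 was at 6.26 and 6.31 CPM with SB4, against 24.5 and 17.4 CPM without, and its member CDX2 at 350 and 290 CPM, against 313 and 310 CPM. The 5 stem cell markers summed to 1019 to 1165 CPM in low Wnt with SB4 and 1310 to 1519 CPM in low Wnt. Of these markers 2 of 5 averaged at least 1 CPM in low Wnt with SB4 and all 5 in low Wnt. The part of cells of these types in the members' changes, DKK1 and RSPO3 included, was not tested.

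**Figure D4:**
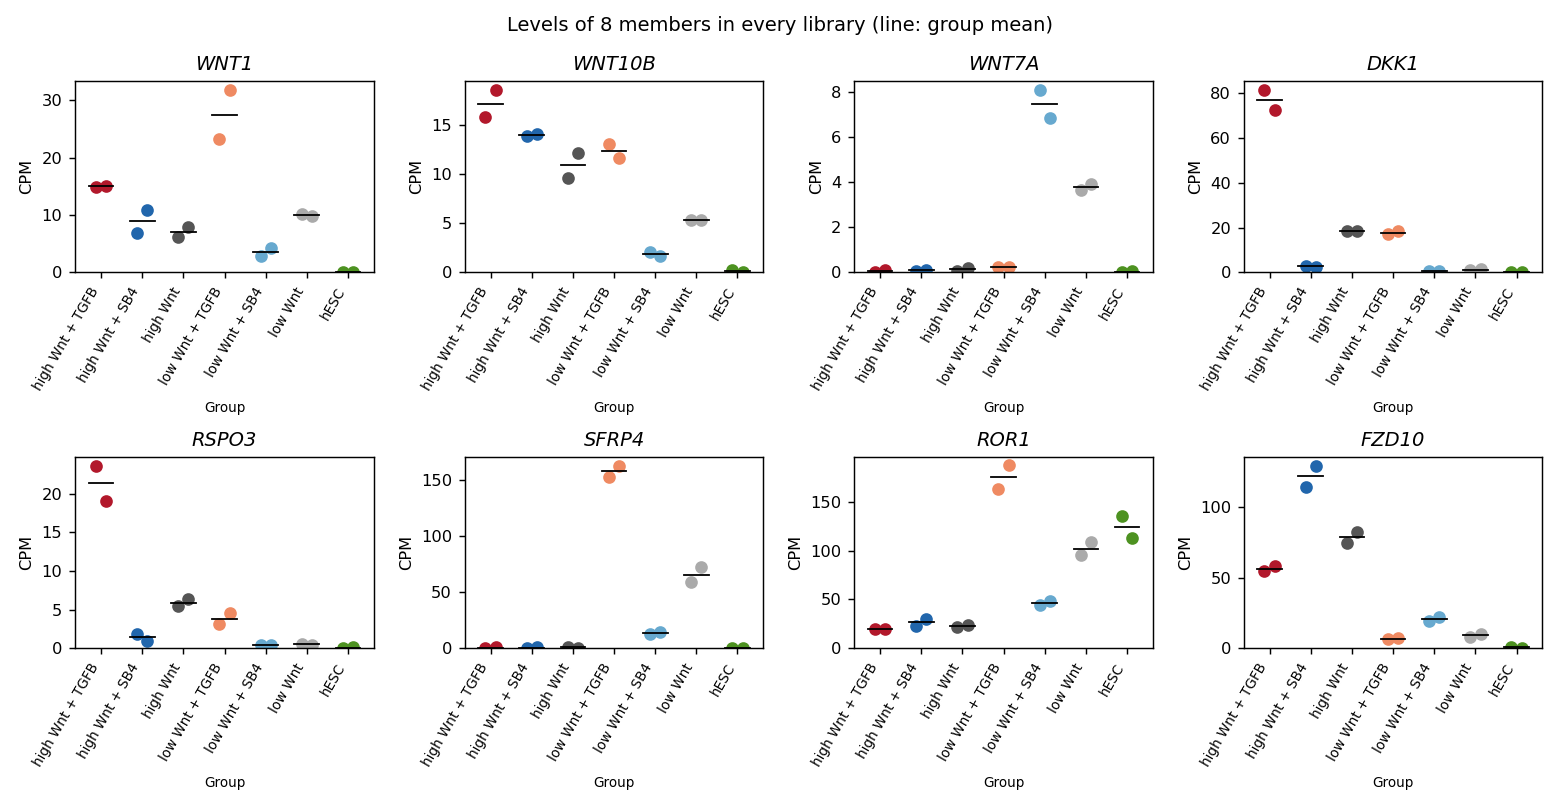
Level in CPM of 8 members in every library; points are libraries and lines group means, on linear axes from 0. DKK1 peaks at 81.3 and 72.6 CPM in high Wnt with TGFB, WNT1 at 23.3 and 31.8 CPM and SFRP4 at 153 and 163 CPM in low Wnt with TGFB, WNT7A at 8.08 and 6.86 CPM in low Wnt with SB4 and FZD10 at 115 and 130 CPM in high Wnt with SB4.

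WNT1 and WNT10B are neighbours on chromosome 12 (hg38), with WNT10B on the minus strand at 48965340 to 48971858 and WNT1 on the plus strand at 48978453 to 48982613, which leaves 6.6 kb between them. Both genes were lower with SB4 in low Wnt, as above, and WNT10B was also higher with TGFB there, at 13.01 and 11.6 CPM in low Wnt with TGFB and 5.34 and 5.31 CPM in low Wnt (1.12 ± 0.20, adjusted p = 0.000411). In high Wnt with SB4, WNT1 was at 6.91 and 10.96 CPM, against 6.13 and 7.93 CPM in high Wnt, and WNT10B at 13.8 and 14 CPM, against 9.60 and 12.1 CPM in high Wnt. The SB4 effect in high Wnt minus that in low Wnt was 1.76 ± 0.35 for WNT1 (adjusted p = 0.00536) and 1.82 ± 0.30 for WNT10B (adjusted p = 0.00104). The second neighbouring pair with tested genes, WNT9A and WNT3A on chromosome 1 with 59.0 kb between them, differed in that WNT3A rose in high Wnt over low Wnt while WNT9A was at 1.21 and 1.78 CPM in high Wnt, against 1.32 and 1.55 CPM in low Wnt.

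The SB4 effect differed between the doses for 10 of 46 tested members, 7 with a higher and 3 with a lower value in high Wnt (21.7%, against 6.07% of all genes, 2.71% higher and 3.36% lower). ROR1 showed it clearly, since in high Wnt with SB4 it was at 23.2 and 29.7 CPM, against 21.4 and 24.1 CPM in high Wnt, while in low Wnt the level was under the low Wnt libraries as above (difference 1.32 ± 0.18, adjusted p = 0.000199). FZD8 was at 12.1 and 17.04 CPM in high Wnt with SB4 and 4.92 and 8.95 CPM in high Wnt, and at 7.11 and 5.65 CPM in low Wnt with SB4 and 12.6 and 12.2 CPM in low Wnt (difference 1.97 ± 0.32, adjusted p = 0.00103). SFRP1 was at 370 and 357 CPM in high Wnt with SB4 and 282 and 291 CPM in high Wnt, and at 563 and 616 CPM in low Wnt with SB4 and 756 and 817 CPM in low Wnt (difference 0.71 ± 0.12, adjusted p = 0.00129). FZD8 and SFRP1 thus stood on opposite sides of their untreated libraries at the 2 doses. The differences for WNT3A (-0.97 ± 0.23), FZD9 (-1.54 ± 0.35) and DKK1 (-1.60 ± 0.42) lost their call when single libraries were left out. For WNT3A these were high Wnt replicate 2 (adjusted p = 0.0693), high Wnt with SB4 replicate 1 (0.0674), low Wnt replicate 2 (0.0717) and low Wnt with SB4 replicate 1 (0.0574), and for FZD9 high Wnt with SB4 replicate 2 (0.0671). For DKK1 they were high Wnt replicate 1 (adjusted p = 0.0617), high Wnt with SB4 replicate 2 (0.0873), low Wnt replicate 1 (0.116) and low Wnt with SB4 replicates 1 (0.173) and 2 (0.110). The remaining calls were ROR2 (0.52 ± 0.15, adjusted p = 0.0496), lost without any 1 of 12 libraries (up to 0.166 without high Wnt replicate 1) and with RLE scaling (0.0525), and RSPO4 (2.02 ± 0.54, adjusted p = 0.0324), lost without any 1 of 5 libraries (up to 0.137 without high Wnt replicate 2) and with only the groups compared (0.0535).

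The TGFB effect differed between the doses for 6 tested members, 3 in each direction (13%, against 11.8% of all genes, 5.73% higher and 6.06% lower), which is near the share of all genes. DKK1 rose less in high Wnt than in low Wnt on the log2 scale (difference -1.70 ± 0.27, adjusted p = 0.000426). ROR1 was at 19.6 and 19.6 CPM in high Wnt with TGFB and 21.4 and 24.1 CPM in high Wnt, and at 163 and 188 CPM in low Wnt with TGFB and 95.9 and 108 CPM in low Wnt (difference -0.97 ± 0.18, adjusted p = 0.00161). WNT5A was at 144 and 142 CPM in high Wnt with TGFB and 133 and 141 CPM in high Wnt, and lower with TGFB in low Wnt as above (difference 0.96 ± 0.19, adjusted p = 0.00266). FZD2 was at 269 and 240 CPM in high Wnt with TGFB and 245 and 231 CPM in high Wnt (difference 0.86 ± 0.18, adjusted p = 0.00485). These 4 differences held whichever library was left out. The difference for LGR5 (-1.97 ± 0.55, adjusted p = 0.0263) was lost without high Wnt replicate 2 (adjusted p = 0.170), high Wnt with TGFB replicate 1 (0.0941), low Wnt replicate 1 (0.109) or low Wnt with TGFB replicate 2 (0.0663), and with DESeq2 (0.0556). That for FZD7 (0.47 ± 0.14, adjusted p = 0.0422) was lost without any 1 of 9 libraries, with an adjusted p of up to 0.173 without low Wnt replicate 2, and with RLE scaling (0.0514) or library totals alone (0.0516).

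A list of 47 other Wnt pathway genes covered secretion, receptor turnover, further inhibitors, glypicans, signal transduction, transcription factors and planar polarity. It had 46 tested genes. Of these 18 rose and 8 fell in high Wnt against low Wnt (56.5% called, against 38.5% of all genes). With TGFB, 16 rose and 7 fell in low Wnt (50%, against 26.0%), and 2 rose and 5 fell in high Wnt (15.2%, against 7.25%). With SB4, 5 rose and 5 fell in low Wnt (21.7%, against 11.2%), and 5 rose and 11 fell in high Wnt (34.8%, against 21.5%). WLS, which carries Wnt proteins to the cell surface, was at 321 and 318 CPM in high Wnt, at 255 and 258 CPM in low Wnt and at 3.67 and 2.63 CPM in hESC (6.58 ± 0.14 in high Wnt, adjusted p = 3.34e-15, and 6.25 ± 0.13 in low Wnt, adjusted p = 7.16e-15). The carrier was thus high in the induced groups in which the ligands were high. LEF1, a transcription factor that acts with beta-catenin and a target of the pathway, was at 285 and 246 CPM in high Wnt, against 13.8 and 12.7 CPM in low Wnt (4.34 ± 0.13, adjusted p = 1.42e-13). SP5, a further target, was at 30.9 and 57.5 CPM in low Wnt with TGFB and 1.32 and 1.97 CPM in low Wnt (4.66 ± 0.31, adjusted p = 1.62e-08). Without additive SP5 stood in the same order between the doses as LEF1, at 22.5 and 20.4 CPM in high Wnt, against 1.32 and 1.97 CPM in low Wnt. AXIN2, an inhibitor that the pathway itself induces, was at 47.3 and 42.4 CPM in high Wnt, at 63.5 and 78.7 CPM in low Wnt and 35.4 and 32.6 CPM in hESC. Between the doses AXIN2 thus stood in the opposite order to LEF1 and SP5. FRZB, a secreted Frizzled-related protein outside the numbered SFRP genes, was at 141 and 130 CPM in high Wnt with TGFB and 40.7 and 42.6 CPM in high Wnt (1.64 ± 0.12, adjusted p = 5.78e-07).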

How the data were processed

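Polyadenylated RNA was sequenced from 14 libraries of 7 groups, with strand-specific libraries per the labels' protocols. The authors deposited raw counts per gene for all libraries in 1 table. Per the file headers, featureCounts assigned read pairs to exons of each gene symbol on the reverse strand, leaving out multiply mapped reads and reads that overlap several genes. Per the submitters' processing notes, HISAT2 2.2.0, SAMtools 1.10, featureCounts 2.0.0 and bcl2fastq (no version recorded) were used with hg38. Read trimming and handling of duplicates: not given in the sources used here.

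Counts were tested in R 4.3.3 with edgeR 4.0.16 (quasi-likelihood F-test). All 14 libraries entered 1 fit with 1 mean per group, TMM scaling and the filterByExpr filter, which kept 16149 genes and left 7 residual degrees of freedom. Calls were made at an adjusted p under 0.05 (Benjamini-Hochberg). CPM used library totals and TPM the exon length in the table, so fold changes and CPM ratios differ slightly. A count of 0 was taken as up to 3 counts, and exact 95% intervals of count ratios and such floors cover counting error only. On simulated data for TGFB in low Wnt (15660 genes), 83% of 100 genes changed by 1 on the log2 scale and 91% of 100 changed by 2 were recovered, with 12 false calls. The changed genes were drawn from those with a mean above 1 CPM over all libraries, so recovery at lower levels was not measured. Replicates differed by more than sampling noise in each group (5.26 to 14.1 chi-square units per degree of freedom), so none were merged. Alternatives were RLE scaling, library totals alone, DESeq2 1.42.0, no filter, at least 1 CPM in 2 libraries, a fit of only the groups compared, a block for the replicate number, and leaving out each library in turn.

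The members and lists were chosen with earlier results of these data known. The naming rule took, per comparison, called members averaging 1 CPM or more in the higher group, the 6 largest rises and 6 largest falls, and for differences between doses up to 8 members by p. Other members named, the pathway genes named and the half-site CAGAC were chosen after their values were seen. Promoter windows are from RefSeq (GRCh38.p14), and 35 of 51 members had at least 1. Coordinates of genes are those of the count table (hg38). TBXT is listed under its older symbol T.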

Additional observations from a re-analysis of the deposited data

Results flagged for a closer look

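For 16 results, 10 for SB4 and 6 for TGFB, the effect of an additive differed between the doses, by the test of the difference itself (edgeR, adjusted over all genes). Values are the log2 effect in high Wnt minus that in low Wnt. For SB4 the difference was 1.76 for WNT1 (0.29 in high Wnt and -1.47 in low Wnt), 1.82 for WNT10B (0.30 and -1.52), 1.97 for FZD8 (1.00 and -0.97), 1.32 for ROR1 (0.16 and -1.16), 0.71 for SFRP1 (0.28 and -0.42), 0.52 for ROR2 (0.12 and -0.40), 2.02 for RSPO4 (0.52 and -1.50), -0.97 for WNT3A (-0.65 and 0.31), -1.54 for FZD9 (-1.09 and 0.46) and -1.60 for DKK1 (-2.79 and -1.19). For TGFB it was 0.96 for WNT5A (-0.0051 in high Wnt and -0.97 in low Wnt), 0.86 for FZD2 (0.035 and -0.82), 0.47 for FZD7 (0.38 and -0.096), -0.97 for ROR1 (-0.28 and 0.70), -1.97 for LGR5 (-0.22 and 1.75) and -1.70 for DKK1 (2.0 and 3.70). ROR1 and DKK1 appear for both additives, and these differences share the high Wnt and low Wnt libraries.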

How the results depend on the processing

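Of 1973 values for 94 gene results under the alternatives, 1863 kept direction and call, 110 in 29 results lost the call and 0 reversed. Of 189 counts of called members, 12 moved by over 1.5 times. With SB4 at both doses and TGFB in high Wnt, leaving out 1 of the libraries compared also lowered the calls over all genes. Leaving out 1 library gave 8 to 21 members for SB4 in low Wnt (18 in the full fit), 7 to 21 for SB4 in high Wnt (19) and 4 to 12 for TGFB in high Wnt (9). The TGFB count in high Wnt was 4 without high Wnt replicate 1 or either high Wnt with TGFB replicate and 5 without high Wnt replicate 2. The other ranges were 30 to 37 for low Wnt against hESC, 35 to 41 for high Wnt against hESC, 30 to 35 for high Wnt against low Wnt, 17 to 26 for TGFB in low Wnt, 7 to 12 for the SB4 difference and 4 to 6 for the TGFB difference. Without a filter on low counts the SB4 difference between doses had 16 members (10 with it) and the TGFB difference 12 (6 with it). Over all genes the calls rose as well. They went from 981 of 16149 to 1405 of 21542 for SB4, and from 1905 of 16149 to 2315 of 21542 for TGFB. The cause was not tested. With the replicate number as a block the counts were 36, 40, 35, 19, 26, 19, 10, 12 and 7 for, in order, low Wnt against hESC, high Wnt against hESC, the 2 doses against each other, the SB4 and then the TGFB effect in low Wnt, the same in high Wnt, and the SB4 and TGFB differences. To look for a link between same-numbered libraries, the log2 CPM difference of replicate 1 minus replicate 2 was taken per gene in each group. Between groups these differences correlated at -0.172 to 0.311 over 21 pairs of groups, over 0.1 in 10 of them. The 6 pairs of groups within a dose were all over 0.1 (0.124 to 0.311). Some but not all of the other pairs were too, up to 0.226 for hESC and low Wnt with TGFB. A shared source of same-numbered libraries, within a dose or beyond it, was thus not settled by this check, and the labels give only a number. Under the block the FZD5 call with SB4 in high Wnt (adjusted p = 0.0502) and the RSPO2 call in high Wnt against low Wnt were lost. Members with few counts, such as WNT7A in high Wnt, are limited by depth.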
